A study of Mus musculus with 6 samples.

Results

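The genes described here are the chaperones, folding enzymes, degradation factors and stress sensors of the endoplasmic reticulum, measured in mouse liver. They were listed by name for their known place in the unfolded protein response; the rule uses no measured value, but the list was drawn up with earlier results of these data known. Of 44 listed genes, 42 had a probe set with exactly 1 gene symbol, out of 22180 genes tested. Of these, 40 were found under the listed symbol and 2, Ero1a and Ero1b, through the older symbols Ero1l and Ero1lb. Pdia4 and Erp29 share their probe sets with another gene and were left out. The 42 genes comprise 22 chaperones and folding enzymes, 10 degradation factors, 6 sensors and regulators, and 4 genes of protein translocation and glycosylation.

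Total RNA of 6 liver samples from male C57BL/6N mice, aged 2 months per the series text, was measured on whole-transcript arrays, with 1 array for each sample and n = 3 in each group. The knockout group (cGK1-KO) lacks cGMP-dependent protein kinase 1, encoded by Prkg1, and per the series text has the kinase restored in its smooth muscle. The control group is labelled wild type, and the series text calls it control. The sources used here do not give the promoter that drives the rescue or the deleted part of Prkg1, and none says whether each replicate is an animal of its own. P-values therefore cover the spread between these samples, which may be technical. The comparison asks how the liver transcripts of the endoplasmic reticulum differ where only smooth muscle has the kinase.

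Hepatocytes secrete most plasma proteins, and these are folded in the endoplasmic reticulum by the Hsp70 chaperone BiP (Hspa5), its cofactors, the lectin chaperones and the disulfide isomerases. Proteins that fail to fold are pulled back into the cytosol and degraded. When unfolded proteins accumulate, the membrane sensors IRE1 (Ern1), ATF6 and PERK (Eif2ak3) start the unfolded protein response. ATF6 and the spliced form of XBP1 then induce chaperone and degradation genes, and PERK acts through ATF4 on amino acid and death-related genes.

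Array medians lay between 3.11 and 3.16 on the log2 scale. Knockout replicate 3 correlated less with knockout replicates 1 and 2 (0.978 and 0.979 across genes) than with the controls (0.981 to 0.983). Values without it are given for many, but not all, of the genes below. Prkg1 lay at 3.31, 3.04 and 3.22 in the knockout and at 3.32, 2.97 and 2.95 in the control arrays, near the median of all values (3.14). At this dim signal it does not check the labels. The 10 hepatocyte markers averaged 11.51 to 11.56 on the knockout and 11.60 to 11.70 on the control arrays. Their median difference was -0.12, with 6 negative and 4 positive differences. At an unadjusted limma p under 0.05, 3 of 10 were lower and 1 higher, against 5.46% and 5.06% of all genes tested. Hnf4a (-0.36), Pck1 (-0.36) and Tat (-0.38) were lower and Fgb (0.43) was higher, each with groups that did not overlap. Over all genes, groups did not overlap in 9.14% (knockout lower) and 7.61% (knockout higher). Macrophage and Kupffer cell markers were higher on the knockout arrays, with 10 of 10 positive differences, and 9 of 10 had groups that did not overlap. Their mean level was 6.10 to 7.31 against 5.64 to 5.82 in the controls. Acinar pancreas markers, from a tissue rich in endoplasmic reticulum, averaged 2.81 to 2.99 over all 6 arrays, and 4 of the 8 measured were under the median of all values on every array. For plasma and B cells the mean was 3.16 to 3.41, with 3 of 9 under that median, 4 differences negative and 5 positive. At an unadjusted limma p under 0.05, 2 of the 9 were lower, Pou2af1 (-0.48) and Sdc1 (-0.34), and 0 were higher. Jchain had a positive difference with overlapping groups, at 3.45, 3.93 and 4.78 in the knockout against 3.84, 3.50 and 3.45 in the controls. For the macrophage and Kupffer cell markers knockout replicate 2 stood highest, at 1.13 above their 6-array mean. It also stood apart for the endothelial markers (9 of 10 positive), at 0.58 above their mean, where the other knockout arrays lay at -0.11 and -0.05 and the controls between -0.16 and -0.12. For the stellate cell markers (9 of 9 positive) it lay at 0.53, the other knockout arrays at -0.06 and 0.01 and the controls between -0.27 and 0.02. The part of these other cell types in the results below was not tested.

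No single gene of the set passed the corrected threshold, while most lay slightly lower in the knockout. Over the whole table limma called 0 of 22180 genes at a Benjamini-Hochberg adjusted p of 0.05 (0.0%), and likewise 0 of the 42. The smallest adjusted p among the 42 was 0.326, for Herpud1. At an unadjusted p under 0.05, 10 of the 42 genes (23.8%) were lower in the knockout and 0 were higher, where 5.46% of all tested genes were lower and 5.06% higher (10.5% in either direction). Differences, knockout minus control in log2 units, were negative for 32 of 42 genes (76.2%) with a median of -0.20, against 49.8% negative and a median of 0.00 over all genes. The 3 knockout values lay below all 3 control values in 9 of 42 genes (21.4%, against 9.14% of all genes) and above them in 1 gene (7.61% of all genes). Because the liver holds several cell types, fewer cells of a type and less RNA per cell cannot be told apart in these values.

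The count of 10 rested on single arrays. It was 3 without knockout replicate 1, 4 without control replicate 2 and 2 without control replicate 3, where 4.54%, 3.42% and 4.10% of all genes were lower. It was 15 without knockout replicate 3, 12 without control replicate 1 and 8 without knockout replicate 2, where 6.19%, 4.08% and 6.21% of all genes were lower. The direction was steadier than the count, with 29 to 34 of the 42 differences negative when any 1 array was left out.

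**Figure D1:**
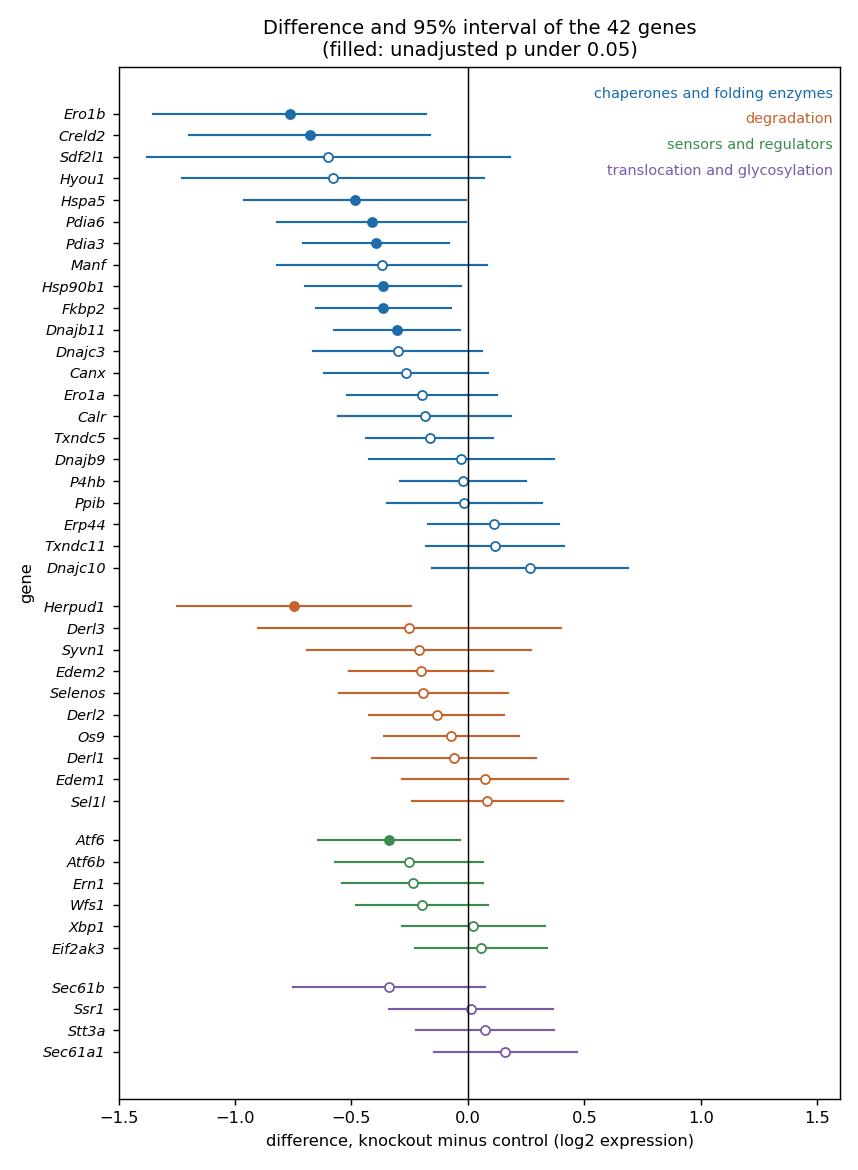
Difference in log2 expression, knockout minus control, for the 42 genes by role, with 95% confidence intervals from limma (n = 3 per group). Filled points mark the 10 genes at an unadjusted p under 0.05, all lower in the knockout; 8 of them are chaperones or folding enzymes, and 0 genes passed after correction.

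Median differences varied between the roles. Chaperones and folding enzymes had a median difference of -0.30, with 19 of 22 negative, 8 at an unadjusted p under 0.05 and 6 with all knockout arrays below all controls. Degradation factors had a median of -0.16, with 8 of 10 negative and 1 at that p. Sensors and regulators had a median of -0.22, with 4 of 6 negative and 1 at that p. For translocation and glycosylation the median was 0.04, 1 of 4 differences was negative and 0 reached that p. All knockout arrays lay below all controls in 3 of 6 sensors, 0 of 10 degradation factors and 0 of 4 translocation genes. Of all genes tested, 49.8% were negative, 5.46% were lower at that p and 9.14% had all knockout arrays below all controls. With any 1 array left out the chaperone median ranged from -0.37 to -0.24, the sensor median from -0.24 to -0.17 and the translocation median from -0.06 to 0.11. The degradation median was -0.081 without control replicate 3 and -0.097 without knockout replicate 1, and -0.066 with the mean of all probe sets of a gene. No test between the roles was made.

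Hspa5 encodes BiP, the main Hsp70 chaperone of the lumen and the usual readout of this stress response. It lay at 6.95, 7.19 and 7.58 on knockout replicates 1 to 3 and at 7.35, 7.89 and 7.94 on control replicates 1 to 3. Control replicate 1 lay below knockout replicate 3, so the groups overlapped. The difference was -0.48 (SE 0.21, 95% interval -0.96 to -0.01), with a limma adjusted p of 0.466. It was -0.34 without knockout replicate 1, -0.66 without knockout replicate 3 and -0.67 without control replicate 1. The promoter of Hspa5 carries the textbook elements of the response, and so the 250 bases before its transcription start are shown, from RefSeq on build GRCm38.p6. Capitals mark a match to the endoplasmic reticulum stress element (ERSE), whose CCAAT part binds the factor NF-Y and whose CCACG part binds ATF6. Further upstream, capitals also mark the letters TGACGTGA, searched here as a site of XBP1 or ATF6. Which factor binds these letters in this promoter was not tested.
Hspa5, chr2:34771840-34772089, plus strand: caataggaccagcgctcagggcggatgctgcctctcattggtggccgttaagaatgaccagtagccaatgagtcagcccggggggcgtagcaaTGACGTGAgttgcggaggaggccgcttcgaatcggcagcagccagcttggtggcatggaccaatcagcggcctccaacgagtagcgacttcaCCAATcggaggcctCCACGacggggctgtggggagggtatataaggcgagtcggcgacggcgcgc

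The cofactors of BiP mostly lay on the same side. Creld2, a secreted stress-induced protein with isomerase activity, lay at 5.80, 6.20 and 6.34 in the knockout and at 6.30, 6.97 and 7.11 in the control. Knockout replicate 3 passed control replicate 1 by a small margin, and the difference was -0.68 (SE 0.23, limma adjusted p = 0.366). It was -0.79 without knockout replicate 3, -0.93 without control replicate 1 and -0.52 without control replicate 3. Dnajb11, a J-domain protein that hands clients to BiP, lay at 6.54, 6.63 and 6.64 against 6.91, 6.88 and 6.94. Here the groups were well apart and the replicates close, with a difference of -0.31 (SE 0.12, adjusted p = 0.423) that kept between -0.32 and -0.28 with any 1 array left out. Hsp90b1, the Hsp90 chaperone of the lumen (GRP94), lay at 10.23, 10.45 and 10.39 against 10.48, 10.87 and 10.81. All knockout arrays were below all controls, the nearest by a narrow gap, and the difference was -0.36 (SE 0.15, adjusted p = 0.432), or -0.38 without knockout replicate 3.

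Of the other BiP partners, the nucleotide exchange factor Hyou1 spread widely, at 6.44, 6.96 and 7.49 in the knockout and 7.02, 7.78 and 7.82 in the control. The difference was -0.58 (95% interval -1.23 to 0.07), and it was -0.84 without knockout replicate 3 and -0.32 without knockout replicate 1. Sdf2l1, a component of the J-protein complexes, was spread still wider, at 5.24, 5.59 and 6.49 against 5.79, 6.43 and 6.91, with a difference of -0.60 (95% interval -1.38 to 0.18). It was -0.96 without knockout replicate 3 and -0.33 without control replicate 3. In both genes knockout replicate 3 lay within the control range. Dnajc3 differed by -0.30 and Manf by -0.37, both with intervals that include 0. Without knockout replicate 3 they were -0.41 and -0.54, and Manf was -0.22 without control replicate 3. Dnajb9, the J-protein that holds IRE1 inactive through BiP, differed by -0.03 (95% interval -0.43 to 0.37). Dnajc10, a J-protein with disulfide reductase activity, was the one cofactor with a positive difference, 0.27 (95% interval -0.15 to 0.69), and it was 0.10 without knockout replicate 2 and 0.42 without knockout replicate 1.

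These cofactors also varied together within the groups. In all 10 of the Hsp70 and Hsp90 chaperones and their cofactors knockout replicate 1 was the lowest knockout array, which held for 34.2% of all genes. Knockout replicate 3 was the highest knockout array in 8 of 10 (35.0% of all genes), and control replicate 1 the lowest control in 8 of 10 (33.8% of all genes). Averaged over the 10 genes as deviations from each gene's mean, the knockout arrays lay at -0.45, -0.17 and 0.10 and the control arrays at -0.10, 0.27 and 0.35. The group means were -0.17 and 0.17, and the SD among the arrays of a group was 0.27 in the knockout and 0.24 in the control. For the sensors the same averages were -0.13, -0.03 and -0.07 in the knockout and 0.12, 0.09 and 0.03 in the control, and for the isomerases and oxidases -0.24, -0.06 and -0.02 against 0.02, 0.15 and 0.15. In both of these lists the groups did not overlap.

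**Figure D2:**
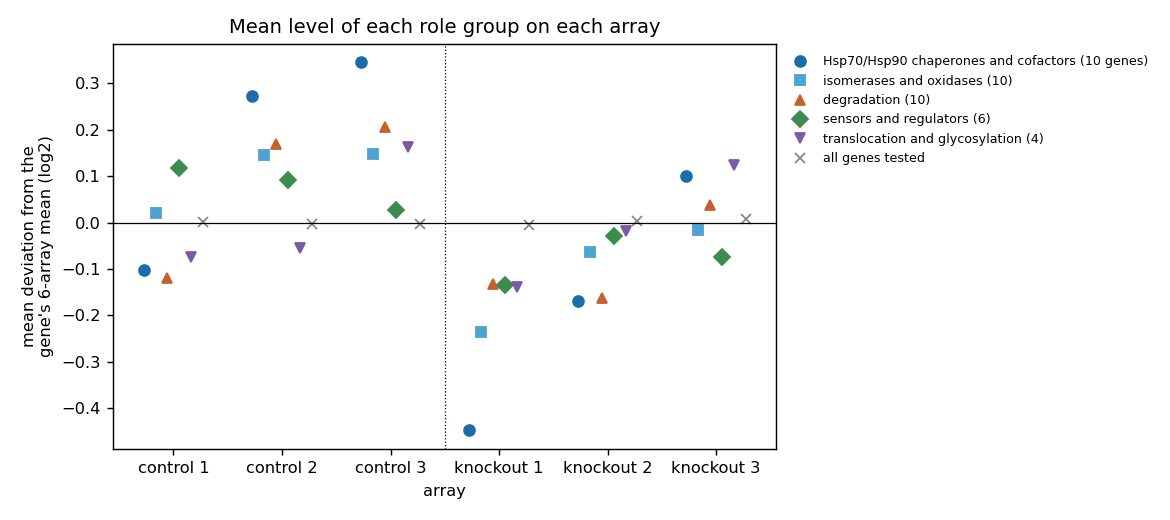
Mean deviation from each gene's 6-array mean (log2) on each array, for the role groups other than the 2 lectin chaperones and for all 22180 genes tested; each point is 1 array and the dotted line separates the groups. The Hsp70 and Hsp90 chaperones span -0.45 to 0.35 with knockout replicate 3 above control replicate 1, whereas for the sensors, within -0.13 to 0.12, and for the isomerases and oxidases, within -0.24 to 0.15, the groups do not overlap.

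Among the disulfide and proline isomerases and oxidases, 4 of 10 were lower at an unadjusted p under 0.05 (5.46% of all genes tested). Ero1b, an oxidase that recharges the disulfide isomerases, had the most negative difference of all 42 genes. It lay at 5.03, 5.76 and 6.11 in the knockout and at 6.15, 6.39 and 6.66 in the control, a difference of -0.77 (SE 0.26, limma adjusted p = 0.366) or a 1.70-fold lower mean. Knockout replicate 3 was just under the lowest control. Knockout replicate 1 was far below the others, and the difference was -0.46 without it and -1.003 without knockout replicate 3. The related oxidase Ero1a differed by -0.20 (-0.098 without knockout replicate 1), and its second, dimmer probe set by -0.16.

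Pdia3, the isomerase that works with the lectin chaperones on glycoproteins, lay at 8.87, 8.87 and 8.98 against 9.09, 9.38 and 9.43, a difference of -0.39 (SE 0.14, adjusted p = 0.382). Fkbp2, a proline isomerase, lay between 8.55 and 8.73 in the knockout and between 8.91 and 9.11 in the control, a difference of -0.36 (SE 0.13, adjusted p = 0.382). In both genes the groups did not overlap, and without knockout replicate 3 the differences were -0.43 and -0.37. Pdia6, an isomerase that also binds IRE1, lay at 7.78, 7.86 and 8.14 against 7.99, 8.51 and 8.52, with overlapping groups and a difference of -0.41 (SE 0.18, adjusted p = 0.466), or -0.52 without knockout replicate 3. By contrast the abundant isomerase P4hb lay at 9.56, 9.68 and 9.59 against 9.61, 9.61 and 9.67, a difference of -0.02 (95% interval -0.29 to 0.25). Ppib, a cyclophilin, differed by -0.01, Erp44 by 0.11 and Txndc11 by 0.12. Erp44, which retrieves folding enzymes from the secretory pathway, was the 1 gene whose knockout values all lay above the controls. The gap was very narrow, with the lowest knockout value at 6.096 and the highest control at 6.093. The difference of Erp44 was 0.058 without knockout replicate 3. Txndc5 differed by only -0.16, with tight replicates and groups that did not overlap.

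The lectin chaperones calnexin and calreticulin, which hold glycoproteins while they fold, showed smaller differences. Canx lay at 9.06, 9.28 and 9.54 in the knockout and at 9.44, 9.57 and 9.68 in the control, a difference of -0.27 (95% interval -0.62 to 0.09). Calr lay at 9.56, 9.74 and 9.84 against 9.61, 10.13 and 9.96, a difference of -0.18 (95% interval -0.56 to 0.19). In both, the groups overlapped. Single arrays moved these values. Canx was -0.15 with knockout replicate 1 left out and -0.39 with knockout replicate 3 left out. Calr was -0.070 without control replicate 2, -0.11 without knockout replicate 1 and -0.33 without control replicate 1.

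**Figure D3:**
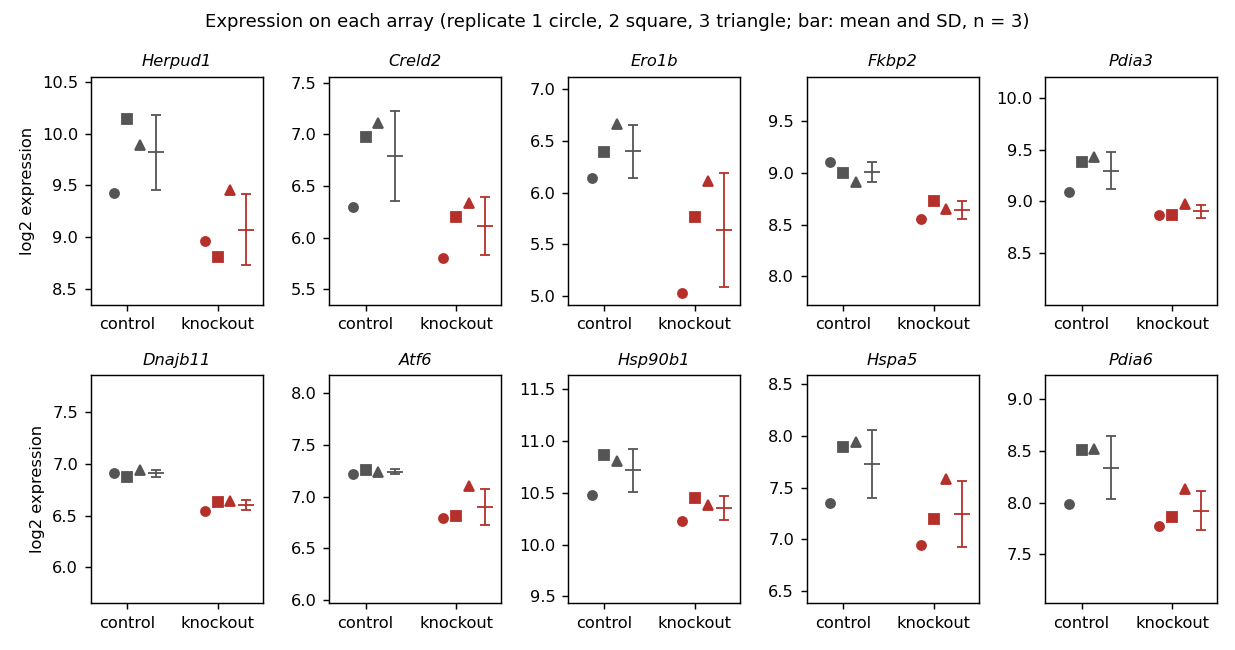
Log2 expression of the 10 genes at an unadjusted p under 0.05 on each array, controls in grey and knockouts in red, with the group mean and SD (n = 3) at the right of each group. Every vertical axis spans the same range of log2 units. Dnajb11, Fkbp2, Atf6, Pdia3, Hsp90b1 and Ero1b have knockout values that all lie below the controls, while in Herpud1, Creld2, Hspa5 and Pdia6 knockout replicate 3 lies above control replicate 1.

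In the degradation arm, Herpud1 had the most negative of the 10 differences. It encodes a membrane protein that gathers the ubiquitin ligase complex and is itself induced by the stress response. Herpud1 lay at 8.96, 8.80 and 9.46 in the knockout and at 9.43, 10.14 and 9.89 in the control. Knockout replicate 3 and control replicate 1 were nearly level, and the other arrays were well apart. The difference of -0.75 (SE 0.22, 95% interval -1.25 to -0.25), a 1.68-fold lower mean, was -0.94 without knockout replicate 3 and -0.59 without control replicate 2, and it had the smallest limma adjusted p of the set (0.326, and 0.148 to 0.716 over 13 alternatives). Its promoter is shown because it holds the other stress element, ERSE-II (capitals), in which the CCAAT part is read from the opposite strand.
Herpud1, chr8:94386179-94386428, plus strand: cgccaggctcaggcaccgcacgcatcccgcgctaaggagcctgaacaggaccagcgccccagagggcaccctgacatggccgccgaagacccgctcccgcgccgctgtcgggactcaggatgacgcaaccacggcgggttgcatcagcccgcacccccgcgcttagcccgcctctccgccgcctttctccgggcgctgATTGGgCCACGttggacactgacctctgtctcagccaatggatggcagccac

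The core of the degradation machinery showed smaller differences. The ligase Syvn1 (HRD1) lay at 6.19, 6.19 and 6.62 in the knockout and at 6.10, 6.65 and 6.88 in the control, a difference of -0.21 (95% interval -0.69 to 0.27). It was -0.041 without control replicate 3 and -0.43 without control replicate 1. Its partner Sel1l differed by 0.08 (95% interval -0.24 to 0.41) and the lectin Os9, which delivers misfolded glycoproteins to them, by -0.07. The mannosidase-like genes were split, with Edem1 at 0.07 and Edem2 at -0.20 (-0.12 without knockout replicate 1). Of the derlins, which form the channel of retrotranslocation, Derl1 differed by -0.06 and Derl2 by -0.13 (-0.072 without knockout replicate 1), although a second, dimmer probe set of Derl2 gave 0.74. Derl3 was dim and variable, at 3.47, 3.12 and 3.05 against 2.80, 3.50 and 4.10. Its difference of -0.25 became 0.07 without control replicate 3. Selenos, which recruits the extracting ATPase, differed by -0.19, by -0.050 without knockout replicate 2, and by 0.38 on a second probe set under the median of all values.

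Of the sensors, Atf6 was the 1 gene at an unadjusted p under 0.05. Atf6 lay at 6.80, 6.81 and 7.10 in the knockout and at 7.22, 7.26 and 7.24 in the control. All knockout arrays were below the tightly grouped controls, and the difference was -0.34 (SE 0.14, 95% interval -0.64 to -0.03, limma adjusted p = 0.429), or -0.44 without knockout replicate 3. Its paralog Atf6b lay at 4.74, 5.10 and 4.80 against 5.20, 5.12 and 5.08, a difference of -0.25. Ern1, encoding the sensor IRE1, lay at 6.09, 6.20 and 5.99 against 6.22, 6.47 and 6.29, a difference of -0.24. Wfs1, which restrains ATF6, lay at 4.95, 5.01 and 5.11 against 5.30, 5.14 and 5.23, a difference of -0.20. The groups did not overlap for Ern1 and Wfs1 and overlapped narrowly for Atf6b, and the intervals of all 3 include 0.

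The remaining regulators had differences near 0. Xbp1, whose transcript IRE1 splices, lay at 8.10, 8.15 and 8.17 against 8.26, 8.17 and 7.92, a difference of 0.02 (95% interval -0.28 to 0.33). A whole-transcript probe set does not separate the spliced from the unspliced form. Eif2ak3, encoding PERK, differed by 0.06 (95% interval -0.23 to 0.34). Transcript levels do not show whether any of the sensors was active.

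Most translocation and glycosylation genes had differences near 0. Sec61a1, the pore subunit of the translocon, differed by 0.16 (95% interval -0.15 to 0.47, and 0.087 without control replicate 1 or 0.24 without control replicate 3), Stt3a, a catalytic subunit of the oligosaccharyl transferase, by 0.07 and the translocon-associated Ssr1 by 0.01. Sec61b differed by -0.34 (-0.16 without control replicate 3), but its probe set was dim on nearly every array (2.45 to 3.29), and a second, dimmer one gave 0.08.

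Other genes of the pathway, not members of the set, had a median difference nearer 0, and 0 of 129 passed after correction in limma. At an unadjusted p under 0.05, 12 (9.30%) were lower and 5 (3.88%) higher, against 5.46% and 5.06% of all genes tested. Of the 129 differences, 83 (64.3%) were negative with a median of -0.08, against 49.8% negative over all genes. Further degradation factors came nearest to the chaperones, with a median of -0.15 and 5 of 20 lower at an unadjusted p under 0.05. All knockout arrays lay below the controls in 9 of these 20 (9.14% of all genes tested). Vcp, the ATPase that extracts clients from the membrane, lay at 8.22, 8.11 and 8.15 against 8.40, 8.65 and 8.63, a difference of -0.40 (SE 0.13, adjusted p = 0.356). Its adaptor Ubxn4 differed by -0.39 and Edem3 by -0.35. In the vesicle export list the median was -0.14, with 15 of 19 negative and all knockout arrays below the controls in 5 of 19 (26.3%). Sec24d, a cargo adaptor of the export coat, differed by -0.40, the GTPase gene Sar1b by -0.38 and the retrieval receptor gene Kdelr3 by 0.49.

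For glycan processing the median was -0.08 and 10 of 17 differences were negative, with Ostc at 0.46, Mcfd2 at -0.36 and Ganab, a glucosidase subunit, at -0.26. All knockout arrays lay below the controls in 5 of these 17 (29.4%, against 9.14% of all genes tested). The translocon and signal peptidase list had a median of -0.08 and 0 of 20 genes at an unadjusted p under 0.05, with Srp14 at -0.23, Srp68 at -0.19 and Sec62 at -0.15. Further folding enzymes had a median of -0.03, with 16 of 28 negative, Fkbp14 at -0.55, Rcn2 at 0.40 and the sulfhydryl oxidase gene Qsox1 at 0.37. Proteases and membrane-bound transcription factors had a median of -0.03, with the liver factor Creb3l3 at -0.35, Creb3 at -0.39 and Creb3l2 at 0.27.

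The PERK branch list had a median of 0.00, with 6 of 13 differences negative. Ddit3 (CHOP), the death-related factor of prolonged stress, lay at 4.86, 4.80 and 4.31 against 4.53, 4.88 and 4.56, a difference of 0.00 (adjusted p = 0.997). Atf4 lay at 6.02, 6.09 and 6.27 against 6.41, 6.38 and 6.34, a difference of -0.25 (SE 0.13, adjusted p = 0.527) with groups that did not overlap. Chac1, an ATF4 target that degrades glutathione, was higher, at 4.28, 4.05 and 3.90 against 3.82, 3.50 and 3.28, a difference of 0.54 (adjusted p = 0.347), and here too the groups did not overlap. The hormone gene Fgf21, also a PPARA target, differed by -0.64 (adjusted p = 0.407), with overlapping groups.

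Stress elements in the promoters were looked for in RefSeq windows of 250 bases before to 50 bases after the transcription start, on both strands. The ERSE was searched as CCAAT, 9 bases of any kind and CCACG, and ERSE-II as ATTGG, 1 base of any kind and CCACG. These elements were first described in promoters of such chaperone genes, so that their presence there is background. Of 32851 windows, 39 (0.119%) held an ERSE and 12 (0.0365%) an ERSE-II. Windows were at hand for 37 of the 42 genes, and 10 of these held an ERSE and 2 others an ERSE-II. Both motifs contain the CCACG letters but differ in spacing. The shorter site TGACGTGG, in 0.676% of windows, was found in Txndc5 and Txndc11, and TGACGTGA, in 0.441%, in Hspa5.

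The 12 genes with an ERSE or ERSE-II all had negative differences (49.8% of all genes tested), with a median of -0.33 and a range of -0.77 to -0.18. Of these 12, 7 were lower at an unadjusted p under 0.05 (5.46% of all genes tested). All knockout arrays lay below the controls in 3 of the 12 (9.14% of all genes tested). The 25 genes whose window held neither had a median of -0.07, with 16 negative. All 12 with an element are chaperones, folding enzymes or degradation factors, while every sensor and translocation gene with a window held neither. The 12 and the 25 thus also differ in role, and the part of the element was not tested. Of these 25, 2 were lower at that p, namely Pdia3 and Fkbp2, and 5 had all knockout arrays below the controls. Atf6 is among the 5 genes without a window. A match describes letters in a short window and does not show that a factor binds there. The matched stretches of the other genes are given below with the matched letters in capitals, so that the spacing and orientation can be compared, read on the strand of each gene and numbered on GRCm38.p6. In the first group the element runs in the direction of the gene.
Hsp90b1, chr10:86705628-86705666, minus strand: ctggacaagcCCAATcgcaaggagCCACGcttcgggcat
Canx, chr11:50325790-50325828, minus strand: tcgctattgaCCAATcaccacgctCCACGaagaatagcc
Pdia6, chr12:17266481-17266519, plus strand: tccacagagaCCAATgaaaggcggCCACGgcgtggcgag
Dnajc3, chr14:118937817-118937855, plus strand: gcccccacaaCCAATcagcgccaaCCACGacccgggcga
Syvn1, chr19:6046522-6046560, plus strand: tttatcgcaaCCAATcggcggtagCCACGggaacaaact
Dnajb11, chr16:22857847-22857867, plus strand: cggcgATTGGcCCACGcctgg

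In the second group the ERSE runs against the gene, so that the CGTGG letters come first. Hsp90b1 holds 1 match in each orientation. Of these genes, Ero1b and Creld2 had the most negative differences (-0.77 and -0.68), while Calr (-0.18) and Derl3 (-0.25) had smaller ones.
Hsp90b1, chr10:86705523-86705561, minus strand: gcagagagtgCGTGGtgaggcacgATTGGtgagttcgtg
Ero1b, chr13:12565672-12565710, plus strand: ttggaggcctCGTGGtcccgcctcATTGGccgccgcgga
Creld2, chr15:88819510-88819548, plus strand: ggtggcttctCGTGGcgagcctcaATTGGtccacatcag
Calr, chr8:84847065-84847103, minus strand: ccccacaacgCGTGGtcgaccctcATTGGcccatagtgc
Derl3, chr10:75893232-75893270, plus strand: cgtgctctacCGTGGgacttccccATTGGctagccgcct

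**Figure D4:**
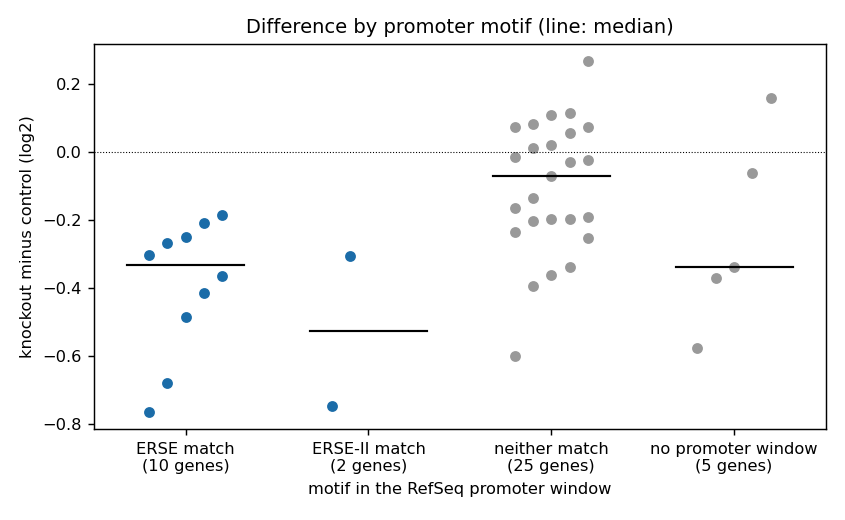
Difference in log2 expression, knockout minus control, of the 42 genes by the stress element found in the RefSeq promoter window; each point is 1 gene and the line is the median. All 12 genes with an ERSE or ERSE-II lie below 0, the 5 without a window range from -0.58 to 0.16, and the 25 with neither spread from -0.60 to 0.27.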

How the data were processed

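Per the labels, biotin-labelled RNA was prepared from 100 ng of total liver RNA with a whole-transcript kit. The submitters' processing notes name RMA and version 1.4.1 of Affymetrix Expression Console. RMA corrects background, sets the arrays to a common distribution and gives a log2 value per probe set, so a shift common to most transcripts would not show. The deposited log2 values, made by the authors for 41345 probe sets on 6 arrays, were used as given. No genome build is given in the sources used here.

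Probe sets were named from the platform annotation (23521 with 1 symbol, 1814 with several, 16010 not listed). Each of 22180 genes was read from its brightest probe set, by the mean of the 6 arrays, with no filter on dim genes. Group differences were tested two-sided in limma 3.58.1 (lmFit, eBayes; R 4.3.3), with Benjamini-Hochberg adjustment over all genes and a threshold of 0.05. The script was tested on simulated data.

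The members, lists, motifs and rules were chosen with earlier results of these data known. Named were the genes at an unadjusted p under 0.05, then at least the 2 of smallest p in each role, with Hspa5, Xbp1, Atf4 and Ddit3, and up to 3 genes of each other list. Other values are given to account for every member.

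Across all genes tested, same-numbered knockout and control arrays did not deviate together (correlations 0.0064, 0.0525 and 0.0154), so the numbers were not treated as pairs. Averaged over the 42 genes, however, the arrays rose from replicate 1 to 3 in both groups. The deviations from each gene's mean were -0.24, -0.11 and 0.03 in the knockout and -0.04, 0.16 and 0.20 in the control. Whether the numbers mark a shared batch was not tested. A fit with the number as a block is among the alternatives below. No 2 arrays were identical (0 pairs). Promoters are from RefSeq on GRCm38.p6. Precision is limited by the small number of arrays.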

Additional observations from a re-analysis of the deposited data

How the results depend on the processing

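By limma, 0 of the 42 genes had an adjusted p under 0.05 in any of 13 alternatives, and the lowest was 0.148 (Herpud1 without knockout replicate 3). Over all genes 8 passed with dim genes left out, 25 with an intensity trend in the prior variance, 1 with the replicate block, 66 without knockout replicate 3 and 3 without control replicate 3. Of the 42 directions, 31 were the same under all 13 alternatives, among them the 10 genes at an unadjusted p under 0.05. With the replicate number as a block, 12 genes were lower at that p.

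After a further quantile normalization 6 genes were lower at an unadjusted p under 0.05, the median of the sensors was -0.16, and Derl1 (0.015), Dnajb9 (0.031) and Ppib (0.051) turned positive; the cause was not tested. With the mean of all probe sets of a gene, Derl2 (0.30, the 1 gene then higher at an unadjusted p under 0.05) and Selenos (0.093) turned positive and Ssr1 negative (-0.062), since their second probe sets point the other way. Ssr1 was -0.0071 with array weights, and Ddit3 was -0.0025 after centring on array medians. With any 1 array left out, the genes lower at an unadjusted p under 0.05 numbered 2 to 15 and those higher 0 to 1, and the medians ranged from -0.23 to -0.16 for all members, -0.37 to -0.24 for chaperones, -0.16 to -0.08 for degradation, -0.24 to -0.17 for sensors and -0.06 to 0.11 for translocation. Differences that changed sign there ranged from -0.19 to 0.089 for Dnajb9, -0.13 to 0.091 for Ppib, -0.14 to 0.062 for Derl1, -0.59 to 0.067 for Derl3, -0.075 to 0.16 for Edem1, -0.0045 to 0.18 for Sel1l, -0.057 to 0.0044 for P4hb, -0.076 to 0.092 for Xbp1, -0.13 to 0.13 for Ssr1 and -0.10 to 0.18 for Ddit3.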

Other observations

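Genes outside the set that hold an ERSE or ERSE-II in their promoter window, 26 of them tested, had a median difference of -0.10, with 15 negative. At an unadjusted p under 0.05, 3 of the 26 were lower and 2 higher, where 5.46% and 5.06% of all genes tested were. On every array 10 of the 26 were at or under the median of all values. The genes at that p are named next. Acacb, an acetyl-CoA carboxylase gene, lay at 4.94, 5.05 and 4.71 in the knockout against 5.19, 6.12 and 5.17 in the control, a difference of -0.59 (limma adjusted p = 0.439). Acnat2 differed by -0.41 and Hnrnpa3 by -0.51. The glycosylation gene Krtcap2 was higher, at 5.68, 5.89 and 6.05 against 4.95, 5.16 and 5.66, a difference of 0.61 (adjusted p = 0.347). Xlr3c, one of a family of near-identical genes and therefore uncertain, differed by 0.32.

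Alg12, a mannosyltransferase gene of glycan assembly, shares 173 bases of its promoter window with Creld2, including the ERSE. Its difference was 0.09 (adjusted p = 0.893), beside -0.68 for Creld2.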
